A study of Mus musculus with 2 samples.

Results

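Broad peaks of H3K4me3 that lie away from annotated transcript starts were examined in MEL cells. They were chosen from the deposited list of replicated peaks on mm10, on chromosomes 1 to 19, by a width of 1000 bp or more and by the absence of a GENCODE M21 transcript start of any gene type within 5000 bp. Of 36215 replicated peaks on these chromosomes, 1082 met both conditions, or 2.99%. Width and distance from a start therefore chose the regions and are given below as description only. The rest of the list was split by the same limits into 9935 broad peaks with a start, 9823 narrow peaks without a start and 15375 narrow peaks with a start.

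The data are 2 ChIP-seq libraries, biological replicates 1 and 2, from 1 group of cells, with no treatment named and no second condition. MEL is an immortalized mouse erythroleukaemia line that resembles red cell precursors, the antibody was against H3K4me3, a separate control library was used, and a size range of 150 to 350 bp is given. The labels name the same cell sample for both libraries, so the spread between them may be technical. The lists hold 51790 peaks for replicate 1, 41508 for replicate 2 and 37387 replicated peaks, with no read counts, so the sequencing depth per peak cannot be stated. A replicated peak lay within 1000 bp of a start of all 6 erythroid markers looked up (Gata1, Klf1, Tal1, Nfe2, Gfi1b and Epor) and of 0 of 8 markers of liver, lymphoid, muscle, neuronal and pluripotent cells.

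Trimethylation of lysine 4 of histone H3 is placed on nucleosomes around the start sites of transcribed and poised genes, by methyltransferases of which several bind unmethylated CG dinucleotides. It flanks the start itself, which is usually depleted of nucleosomes. Distal enhancers mostly carry monomethylated rather than trimethylated lysine 4, although active ones can carry both. In red cell precursors, GATA1 and its partners TAL1, LMO2 and KLF1 bind many enhancers, at words such as AGATAA for GATA1 and CACC boxes for KLF1. Transfer RNA genes are transcribed by RNA polymerase III from promoter elements inside the gene, and active ones are also known to be flanked by H3K4me3.

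The sequences below show the range among the regions, read from GRCm38, the same build as mm10. The first set shows how CG content differed at the summit, the base the authors gave as the top of the peak. It holds the summit and 100 bases on each side, on the plus strand, with each CG in capitals. The region with the highest signal value, nearest to the protein-coding gene Gm11444, held 12 CG in this window. The region with the second highest, upstream of Usp24, held 3. The region with the highest ratio of observed to expected CG, upstream of Chd7, held 4 in a sequence poor in C and G.
Gm11444 region, chr11:85844377-85844577: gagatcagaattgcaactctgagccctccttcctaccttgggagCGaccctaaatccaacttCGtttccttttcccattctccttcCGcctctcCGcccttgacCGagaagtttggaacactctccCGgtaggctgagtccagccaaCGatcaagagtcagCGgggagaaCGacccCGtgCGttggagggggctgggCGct
Usp24 region, chr4:106281492-106281692: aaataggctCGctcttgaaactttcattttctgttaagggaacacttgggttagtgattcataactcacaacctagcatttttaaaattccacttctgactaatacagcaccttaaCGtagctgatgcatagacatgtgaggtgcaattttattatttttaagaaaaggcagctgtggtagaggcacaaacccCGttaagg
Chd7 region, chr4:8646805-8647005: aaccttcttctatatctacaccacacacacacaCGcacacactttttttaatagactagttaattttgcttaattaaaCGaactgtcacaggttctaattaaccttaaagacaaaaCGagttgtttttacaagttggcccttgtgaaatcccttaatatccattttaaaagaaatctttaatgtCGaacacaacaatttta

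The second set shows GATA words (the word AGATAA, the word TGATAA, the word AGATAG and the word TGATAG, each on either strand) in capitals in the same kind of window. The Fshb region had no CG within 150 bases of its summit. The Ank1 region lay in an intron of the gene for ankyrin 1, which ties the red cell membrane to its skeleton. The Lmo2 region lay upstream of the gene for LMO2, the bridging partner of GATA1 and TAL1.
Fshb region, chr2:107150189-107150389: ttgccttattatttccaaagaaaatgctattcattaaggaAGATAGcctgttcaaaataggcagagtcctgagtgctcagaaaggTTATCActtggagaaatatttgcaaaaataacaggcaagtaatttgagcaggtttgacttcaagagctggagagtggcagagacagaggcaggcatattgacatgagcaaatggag
Ank1 region, chr8:23028850-23029050: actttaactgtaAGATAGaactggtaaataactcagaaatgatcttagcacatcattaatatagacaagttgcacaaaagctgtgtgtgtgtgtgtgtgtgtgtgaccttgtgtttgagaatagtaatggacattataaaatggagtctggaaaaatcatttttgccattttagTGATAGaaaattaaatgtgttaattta
Lmo2 region, chr2:103931442-103931642: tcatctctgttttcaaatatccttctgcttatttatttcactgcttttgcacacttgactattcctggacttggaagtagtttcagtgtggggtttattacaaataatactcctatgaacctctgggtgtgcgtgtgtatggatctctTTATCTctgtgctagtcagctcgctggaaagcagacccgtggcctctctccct

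The last set shows starts that the rule did not see. The tRNA-Ala gene n-TAagc18 is printed on its own strand, plus, with the gene in capitals and the summit of a region 10 bases from the left end. For Steap3, the 200 bases before a curated RefSeq start inside a region are printed on the minus strand, with each CG in capitals.
n-TAagc18, chr13:21242393-21242651: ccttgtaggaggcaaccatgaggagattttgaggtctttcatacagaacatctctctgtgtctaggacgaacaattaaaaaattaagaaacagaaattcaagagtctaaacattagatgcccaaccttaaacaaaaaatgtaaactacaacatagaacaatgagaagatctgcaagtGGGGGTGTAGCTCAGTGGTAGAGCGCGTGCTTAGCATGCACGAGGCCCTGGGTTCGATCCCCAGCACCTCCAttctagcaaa
Steap3 upstream, chr1:120258879-120259078: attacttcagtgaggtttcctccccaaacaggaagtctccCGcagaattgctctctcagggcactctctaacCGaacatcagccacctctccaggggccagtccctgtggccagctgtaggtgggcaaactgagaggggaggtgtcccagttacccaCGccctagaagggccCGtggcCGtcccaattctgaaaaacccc

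By signal value the regions lay between broad peaks with a start and narrow peaks without one. The signal value is the authors' score for a peak, and is compared here within a list only. Its median was 8.35 (range 1.99 to 28.4) in broad peaks without a start, against 13.1 in broad peaks with a start, 4.44 in narrow peaks without a start and 6.77 in all replicated peaks. Median width was 1276.5 bp, with the widest at 4667 bp, against 1533 bp in broad peaks with a start. The nearest start lay a median of 14641.5 bp away, from 5002 to 207533 bp, and 14641 bp away in narrow peaks without a start. By signal value, 76 of the regions, or 7.02%, lay in the top 10% of all replicated peaks. Only 1 region had a q-value above 0.05.

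Both limits cut through a continuum, and the number of regions moved with the width limit. It was 1887 with a minimum of 800 bp and 297 with 1500 bp. Where peaks were merged across gaps of 1000 bp before the rule was applied, it was 1896. The count shifted less with the start limit. It was 1400 with no start within 2500 bp, 745 with none within 10000 bp and 1586 with protein-coding starts only. The 119 regions of 1000 to 1049 bp had a median signal value of 7.56, and 191 peaks without a start just below the width limit, from 950 to 999 bp, had 7.83. The 40 regions with a start at 5002 to 5496 bp had a median of 9.10, and 52 broad peaks with a start at 4502 to 4972 bp had 9.21. The regions were spread over all 19 autosomes, with 39 on chromosome 18 and 81 on chromosome 2. Chromosome 19 held 0.798 per Mb, the highest density, and chromosome 6 held 0.274 per Mb. As a share of each chromosome's replicated peaks, the order differed, with 4.91% on chromosome 13 as the highest, 3.75% on chromosome 19 and 1.81% on chromosome 7 as the lowest. Chromosome X, outside the rule, held 29 peaks that met the same limits.

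Most of the regions were listed in both replicates. At least 50% of the bases were covered by peaks of both replicate lists in 1075 of 1082 regions (99.4%), against 89.7% of all replicated peaks. Broad peaks with a start reached 99.6% and narrow peaks without a start 82.9%. Since the replicated list was made from the replicate lists, this describes how well the borders were matched and is no separate measure of agreement. A peak that was itself 1000 bp or wider was listed in 776 regions (71.7%) in replicate 1 and 914 (84.5%) in replicate 2, in 652 (60.3%) in both, and in 44 in neither. In replicate 1, 318 regions were covered by 2 or more peaks, and in replicate 2, 161. The width limit was thus met in both replicates by fewer regions than the rule counts. The same counts were not made for the other classes. For replicates 1 and 2, the overlapping peaks had lower quartiles of width at 965 and 1066 bp in the regions. Broad peaks with a start had 1097 and 1250 bp, both above the limit. Their replicated peaks were also wider (median 1533 against 1276.5 bp). Whether the shortfall is particular to the regions was therefore not tested.

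The 7 regions below 50% coverage in a replicate are named because the count is small. In replicate 1, the region between genes nearest to Rapgef2 and the one in an intron of Aak1 had no peak, while replicate 2 covered both fully. In replicate 2, the region in an intron of Srbd1 had no peak. The regions in introns of Cep83, Cmah and Cdk6 and the one upstream of Fut8 were covered to 16.9%, 49.6%, 39.4% and 43.5% in replicate 2, and fully in replicate 1. The Cdk6 region lies in the gene for a cell cycle kinase that holds haematopoietic progenitors in division.

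Strength ranked only partly alike in the replicates, with a lower correlation than over peaks of all kinds. The percentile of a region's strongest overlapping peak within each replicate list had a median of 72.9 in replicate 1 and 65.0 in replicate 2. Over the 1079 regions with a peak in both, the signal values had a Spearman rho of 0.60, against 0.76 over 33584 peaks of all kinds. This correlation is across peaks of the same 2 libraries. The regions also spanned a narrower range of replicated signal values, with quartiles of 6.14 and 11.6 against 4.16 and 11.5 in all replicated peaks. How far the range affects the rho was not tested. Width and signal value were weakly related over the 1082 regions (rho 0.15), as were CpG ratio and signal value (rho 0.19).

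**Figure D1:**
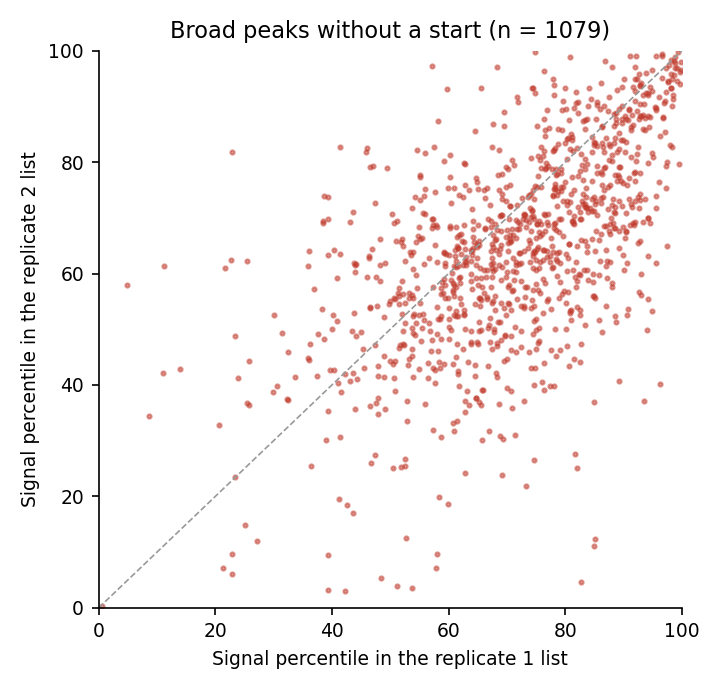
Signal percentile of the strongest overlapping peak within the replicate 1 list (x axis, percent) and within the replicate 2 list (y axis, percent), 1 point for each of 1079 broad peaks without a start that have a peak in both lists; the dashed line marks equal percentiles. Points spread around the line, with a Spearman rho of 0.60 between the signal values, and some regions rank low in one list and high in the other.

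CpG content at the summit lay between that of promoter and narrow distal peaks. The ratio of observed to expected CG, where 1 means as many as the C and G content allows by chance, was measured over the summit and 150 bases on each side. Its median was 0.378 in broad peaks without a start (quartiles 0.255 and 0.523), against 0.678 in broad peaks with a start, 0.272 in narrow peaks without a start and 0.428 in all replicated peaks. GC content followed, with medians of 46.8%, 57.1%, 44.9% and 49.5% in the same order of classes. High-CpG summits, with a ratio of at least 0.6 and GC of at least 50%, made up 8.23% of the regions (89 of 1082), against 51.9% of broad peaks with a start and 2.26% of narrow peaks without one. Low-CpG summits, with a ratio under 0.4, made up 54.6% of the regions (591), against 14.6% and 75.2%. Away from the summit the picture differed. Anywhere in the peak, a stretch of 200 bases that met the high-CpG limits was found in 451 regions (41.7%), against 89.7% of broad peaks with a start and 7.83% of narrow peaks without one, and a wider peak has more room for one. At 20 of all 1082 regions, the summit and 150 bases on each side held no CG at all. Such summits were more common in narrow peaks without a start. At percentile 4 the ratio was still 0 there, against 0.0949 in the regions and 0.227 in broad peaks with a start.

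**Figure D2:**
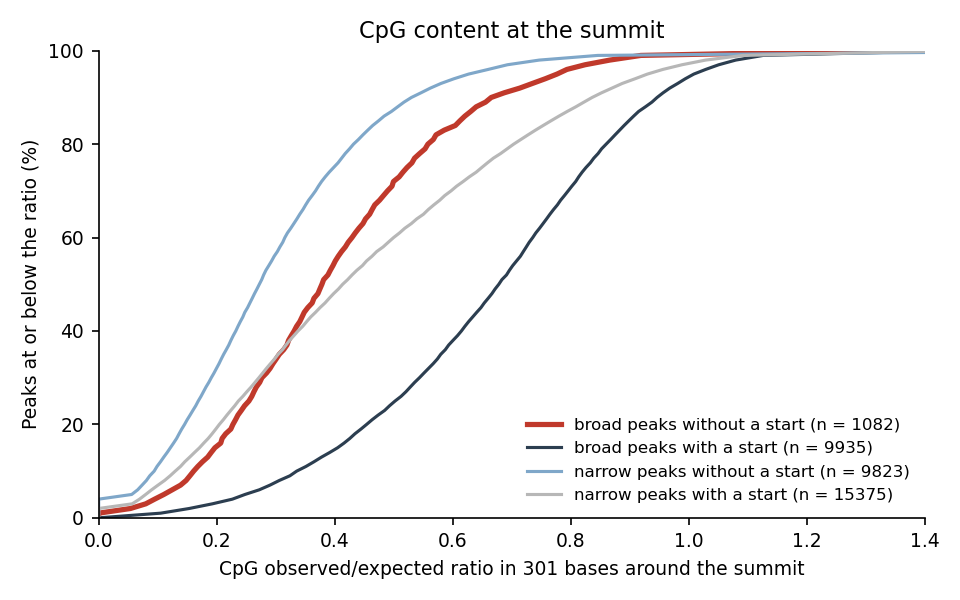
Cumulative percent of peaks (y axis) at or below each CpG observed/expected ratio over 150 bases on each side of the summit (x axis), 1 line for each of 4 classes of replicated peaks. The line of the 1082 broad peaks without a start (median 0.378) runs between those of narrow peaks without a start (0.272) and of broad peaks with a start (0.678).

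Regions with more CG at the summit had higher signal values. The 89 high-CpG regions had a median signal value of 10.8, the 402 intermediate ones 8.96 and the 591 low-CpG ones 7.80, with nearly equal median widths of 1262, 1276 and 1277 bp. The same order held in replicate 1 (9.52, 8.74 and 8.08) and in replicate 2 (12.0, 9.60 and 8.30). The 5 highest ratios were 1.32 upstream of Chd7, 1.05 near Fbxw4, 1.03 near Foxe1, 1.02 in an exon of Fam172a near Nr2f1, and 1.00 near Tmem44. Chd7 encodes a chromatin remodeller, Foxe1 a forkhead factor of the thyroid and Nr2f1 an orphan nuclear receptor. Repeat content at the summit lay between that of broad peaks with a start and narrow peaks without a start. A median of 11.6% of the window was soft-masked as repeats. It was 6.31% in broad peaks with a start, 14.0% in narrow peaks without a start and 8.31% in all replicated peaks. In 26 regions (2.40%), 10% or more of the 32-base words also lay elsewhere in the genome. This held for 0.886% of broad peaks with a start, 5.75% of narrow peaks without a start and 4.48% of all replicated peaks.

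Most of the regions lay between genes. The summit was intergenic in 659 (60.9%), intronic in 372 (34.4%) and exonic in 51 (4.71%). In narrow peaks without a start the shares were 54.7%, 42.5% and 2.80%, and in broad peaks with a start, which lie at genes by their choice, 15.0%, 41.5% and 43.6%. Intergenic regions had a median CpG ratio of 0.40 and intronic ones 0.339. By distance from the nearest GENCODE start, 337 regions lay within 10 kb, 361 at 10 to 20 kb, 293 at 20 to 50 kb, 65 at 50 to 100 kb and 26 farther away. The 26 farthest had a median signal value of 10.4, a median GC content of 38.9% and a median ratio of 0.283, and none had a RefSeq start near its summit. The farthest of all lay 207533 bp from any start on chromosome 16, nearest to Speer2, with signal values of 6.79 in replicate 1 and 12.1 in replicate 2.

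Starts that GENCODE M21 lacks were looked for in RefSeq, on the same build, with tRNA genes included. A RefSeq transcript start lay inside 78 of 1082 regions (7.21%), against 63.8% of broad peaks with a start, 1.13% of narrow peaks without a start and 24.9% of all replicated peaks. A wider peak has more room for a start, so a fixed window was also used. Within 1000 bp of the summit, a RefSeq start lay at 139 regions (12.8%), against 88.2% of broad peaks with a start, 5.25% of narrow peaks without one and 50.2% of all. The high-CpG regions had one at 25.8% (23 of 89), the intermediate at 16.4% and the low-CpG at 8.46%. At each CpG level the share was higher than in narrow peaks without a start, where it was 20.7%, 8.05% and 3.95%. These shares were not tested. Where the rule used protein-coding starts only, the share with a RefSeq start near the summit was 22.01%. No RefSeq start lay within 5000 bp of 823 regions, or 76.1%, so most of them stay without a start in both annotations. The share at this distance was not computed for the other classes, so it is not read as a trait of the regions.

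The starts inside the regions were mainly those of predicted RNAs. They belonged to 81 RefSeq genes, of which 45 had a predicted long non-coding RNA, 19 a predicted mRNA, 7 were tRNA genes, 5 had a curated mRNA, 4 a curated long non-coding RNA and 2 a transcript of another kind. Ttc39a was counted under both a predicted mRNA and another kind. For 27 of these genes GENCODE holds the same symbol, so the RefSeq start is another start of a known gene. Of 99 starts, the summit lay downstream of 62 and upstream of 37, a median of 135 bp into the transcript. Starts of several variants of a gene in the same region, as for Ripor2 and Gm4718, were counted separately, so these counts are not independent. Counted by region, 44 of 78 held a predicted long non-coding RNA start and 19 a predicted mRNA start. In narrow peaks without a start these were 71 and 23 of 111, so predicted starts were not particular to the regions.

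The 5 curated mRNA starts were in Steap3, Ethe1, Ahnak2, Cdsn and Gm10130. Steap3 encodes the endosomal ferrireductase that reduces iron for uptake by red cell precursors. Its region, chr1:120258073-120259252, had signal values of 13.4 in replicate 1 and 10.2 in replicate 2, at percentiles 91.6 and 69.0 of those lists, and a CpG ratio of 0.617. The RefSeq start lay at 120258878 on the minus strand, and the sequence before it is printed above. The summit lay 6870 bp downstream of the nearest protein-coding GENCODE start. Ethe1, a mitochondrial sulfur dioxygenase gene, had 4.83 and 7.67, and Cdsn, the corneodesmosin gene of the skin, had 6.60 and 8.93. Ahnak2 had 5.74 and 6.39, and Gm10130 had 9.52 and 18.8. Both replicate lists thus held a peak that overlapped each of the 5 regions.

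Predicted mRNA starts lay in regions at genes of several kinds. Elf1 encodes an ETS factor of blood cells, Gab1 an adaptor of growth factor receptors, Esr1 the oestrogen receptor alpha, and Slamf1 a receptor of lymphocytes. The Esr1 region had signal values of 15.7 in replicate 1 and 17.4 in replicate 2, the Elf1 region 9.004 and 13.5, and the summits lay at -196 bp and -91 bp from these starts, upstream of them. For Gm8273, a curated long non-coding RNA, the start lay in the region with the highest CpG ratio, with signal values of 14.2 and 7.81. Predicted transcripts were built by the annotation software, and no RNA was measured in these data.

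**Figure D3:**
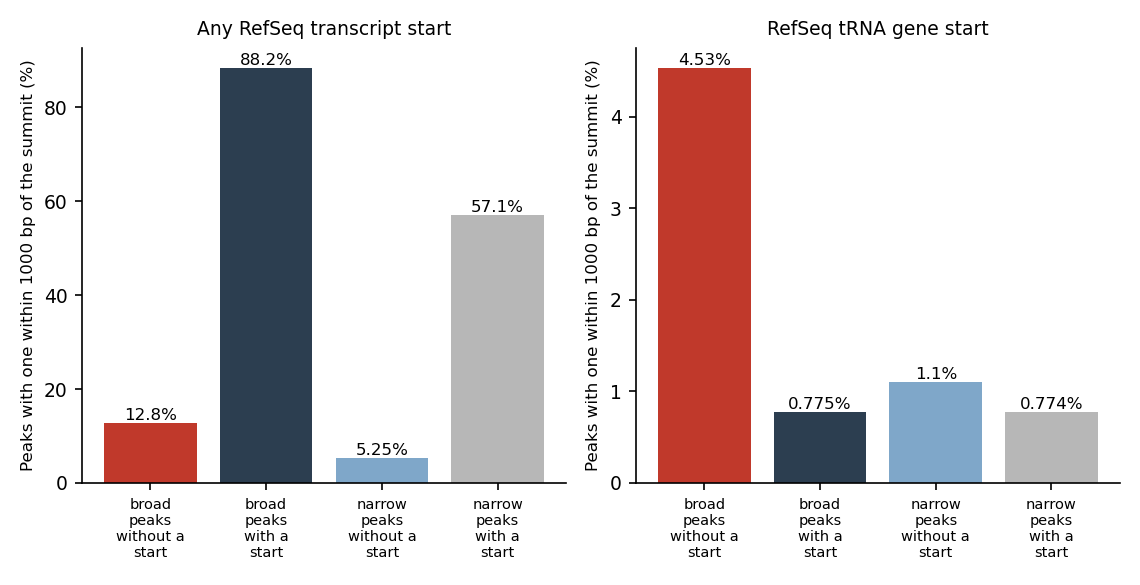
Percent of peaks (y axis) with a RefSeq transcript start (left) or a RefSeq tRNA gene start (right) within 1000 bp of the summit, in 4 classes of replicated peaks; each bar is a share over all peaks of its class and has no error bar. Broad peaks without a start have 12.8% and 4.53%, against 5.25% and 1.10% in narrow peaks without a start.

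Transfer RNA genes lay beside some of the regions. A tRNA gene start lay within 1000 bp of the summit of 49 regions (4.53%), against 0.775% of broad peaks with a start, 1.10% of narrow peaks without a start and 0.975% of all replicated peaks. GENCODE M21 holds 0 tRNA genes on these chromosomes, so the rule could not see them. The 49 regions lay on 13 chromosomes and beside genes for 19 kinds of tRNA. Chromosome 13 held 19 of them, among them those nearest to Trim27, Gpx5 and Zfp184, and without that chromosome the share was 2.99%, against 0.678% of all replicated peaks. Where peaks were merged across gaps of 1000 bp before the rule was applied, the share was 2.11%. Of 386 RefSeq tRNA genes on chromosomes 1 to 19, 259 (67.1%) had a replicated peak within 1000 bp, and 75 (19.4%) had 1 of these broad regions.

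Most of these peaks stopped short of the tRNA start. The summits lay a median of 206 bp from the nearest tRNA start (quartiles 163 and 376 bp), 30 of 49 over 100 and up to 250 bp away and none within 100 bp. In 33 the summit lay upstream of the gene and in 16 downstream. The nearest tRNA start was inside the peak in 6 regions and outside it in 43. Beside 4 genes, n-TAagc18, n-TEttc6, n-TKctt29 and n-TNgtt9, a region lay on each side. At n-TAagc18, printed above, the region whose edge lay at -97 bp from the start had signal values of 3.73 in replicate 1 and 3.08 in replicate 2, and the region beyond the gene had 14.1 and 17.7. The 49 regions had a median CpG ratio of 0.638, against 0.378 in all the regions, and a median signal value of 7.39.

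**Figure D4:**
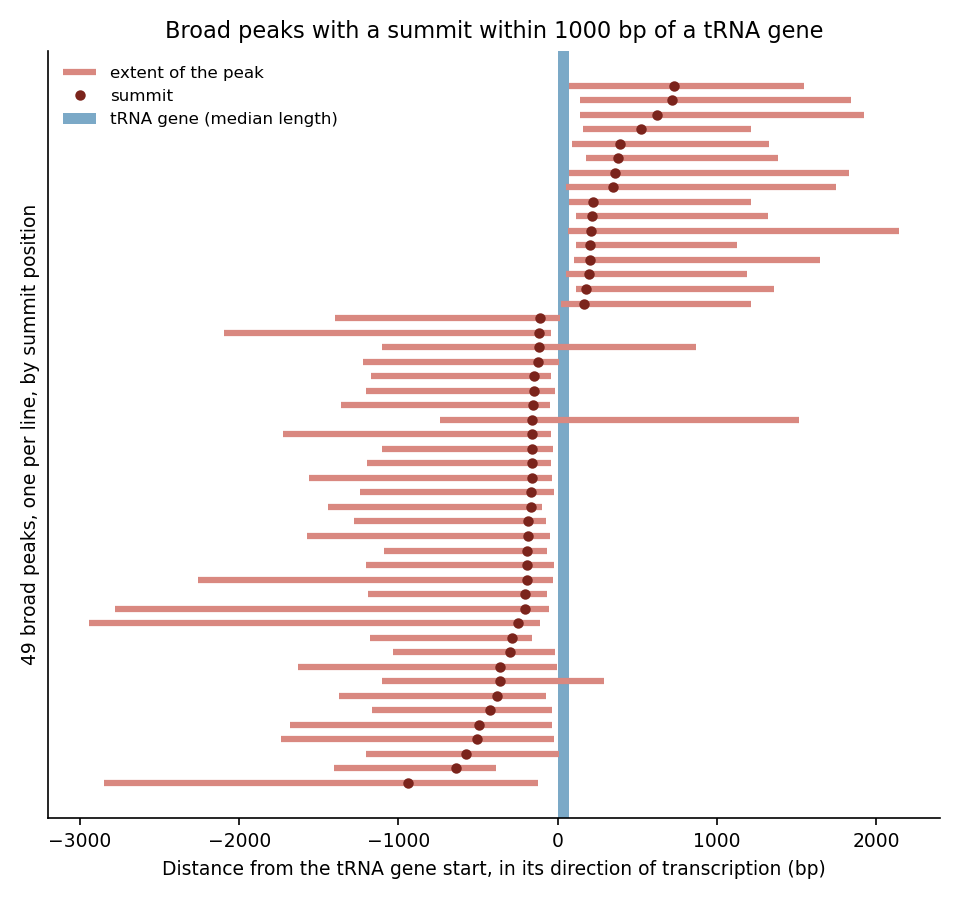
Extent (bars) and summit (points) of the 49 broad peaks without an annotated start whose summit lies within 1000 bp of a RefSeq tRNA gene, 1 per line, by distance from the nearest tRNA start in its direction of transcription (x axis, bp); the blue band is the median tRNA gene length. The summits lie 109 to 939 bp from the start, and 43 peaks do not reach it.

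GATA words were more common at these summits than at promoter peaks and less common than at narrow distal peaks. At least 1 word lay within 150 bases of the summit in 469 of 1082 regions (43.3%), against 21.8% of broad peaks with a start, 50.5% of narrow peaks without a start and 35.7% of all replicated peaks. Within 300 bases of the summit the share was 70.06%. Within 150 bases it differed by CpG class. In high, intermediate and low-CpG regions it was 25.8%, 41.5% and 47.2%, against 27.9%, 48.6% and 51.8% in narrow peaks without a start. With the regions split into 4 groups by signal value, the share was 55.0%, 43.0%, 35.2% and 40.2% from the lowest group to the highest, with no steady fall. The CACC box (CCNCNCCC on either strand) went the other way, with 29.0% of the regions, against 45.7% of broad peaks with a start, 25.3% of narrow peaks without one and 36.7% of all. The AP-1 or NF-E2 word TGACTCA, also on either strand, lay in 7.12% of the regions, against 3.13%, 6.79% and 5.04% in the same classes. The words CAGCTG or CAGATG, bound by E-box factors such as TAL1, lay in 29.3%, against 24.4%, 30.5% and 28.1%. A word in the sequence is not a bound site. GATA words are short and rich in A and T. Median summit GC content was 46.8% in the regions, 57.1% in broad peaks with a start and 44.9% in narrow peaks without one. How often such words occur by chance at these base contents and window lengths was not tested, so the shares do not measure an excess.

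**Figure D5:**
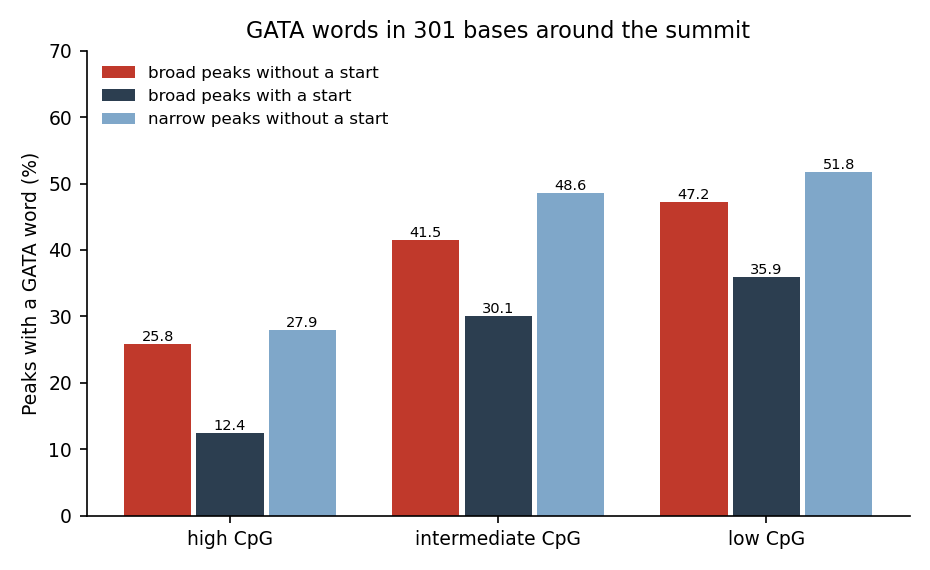
Percent of peaks (y axis) with a GATA word within 150 bases of the summit, by CpG class of that window, in 3 classes of replicated peaks; each bar is a share over all peaks of its class and has no error bar. Broad peaks without a start lie between broad peaks with a start and narrow peaks without a start at each CpG level.

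The regions were spread over many genes. Their nearest protein-coding starts belonged to 894 genes, 755 of them nearest to a single region. Tcf7l2, a transcription factor of Wnt signalling, and Trim27 were nearest to 5 each, and Chd2, Foxl1, Fut8, Gpx5, Gse1, Jak2, Max, Zfp184 and Zfp217 to 4 each. All 5 regions of Trim27 and all 4 of Gpx5 and of Zfp184 were among those beside tRNA genes. A further region within 10 kb was found for 172 regions (15.9%), which formed 77 groups. This was not counted for the other classes. A replicated peak of any class lay within 1000 bp of 44.9% of the regions. The share was 72.1% in broad peaks with a start, 49.5% in narrow peaks without a start and 68.3% in all replicated peaks. The largest group, 4 regions over 17078 bp on chromosome 8 near Foxl1, had signal values of 3.72 to 8.18. The widest region of all, with a width of 4667 bp, had its summit in an exon within the non-coding genes Gm49539 and Lncppara on chromosome 15. That summit lay 67413 bp upstream of the start of Ppara, the gene of a nuclear receptor of fatty acid breakdown. The region had signal values of 8.90 in replicate 1 and 10.2 in replicate 2 and was 1 of 3 regions within 9549 bp.

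The 10 strongest regions had signal values of 22.3 to 28.4. The strongest, chr11:85843435-85845212 near Gm11444, had 20.9 in replicate 1 and 31.4 in replicate 2, with widths of 1738 and 3606 bp. The Usp24 region had 26.5 and 24.8, the Pum2 region 16.5 and 29.4, and the Hmcn2 region 19.6 and 26.96. Pum2 encodes an RNA-binding repressor of translation and Usp24 a deubiquitinase. The region nearest to Cdh6, 98396 bp from any start, had 24.4 and 22.6, with a CpG ratio of only 0.212. Others lay nearest to Prdm1, the gene of a transcriptional repressor that promotes plasma cell and germ cell fate, to Kmt2e, Flt1, Fbxo27 and 1700008P02Rik. Their CpG ratios ran from 0.212 to 0.878, so strong regions were found at low and at high ratios.

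Genes of blood cell control held or neighboured some of the regions. Of all 21924 protein-coding genes, 943 (4.30%) held a region's summit or had the start nearest to one. Of 31 stem, progenitor and leukaemia regulators, 8 did (25.8%), of 36 haematopoietic receptors and signalling genes, 8 (22.2%), and of 21 erythroid transcription factors, 3 (14.3%). Of 26 haem and iron genes 1 did (3.85%), of 34 red cell membrane and effector genes 2 (5.88%), of 10 globin genes 0, and of 19 neuronal, liver and muscle markers 2 (10.5%). Gene length and spacing, which set how many regions a gene can hold, were not accounted for. The lists were made with earlier results of these data known, so the shares are no independent support, and they were not tested. The 38 regions tied to listed genes had a median signal value of 7.46, against 8.35 in all the regions, and 17 (44.7%) held a GATA word.

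Among the erythroid factors, regions lay at Lmo2, Bcl11a and Nfia, all with replicated signal values under the 8.35 median of the whole set. Lmo2 had 2 upstream regions, 63197 bp and 26444 bp from its start, and each held 2 GATA words. Their signal values were 7.20 and 8.30 in replicate 1 and 5.96 and 8.23 in replicate 2. For the region 63197 bp away, a RefSeq start lay 29 bp from its edge and 729 bp from its summit. Bcl11a, a repressor of embryonic globin, had an intronic region with 6.15 in replicate 1 and 2.95 in replicate 2, at percentiles 58.1 and 9.60, so that it ranked low in one list only. A second, 198584 bp downstream of the gene's start, had 5.69 and 7.75. Nfia, a factor of erythroid commitment, had 7.63 and 5.54 at one intronic region and 8.84 and 5.09 at the other. The 6 regions of this list had a median signal value of 5.10.

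Regions at stem and progenitor genes were stronger in part. The region in an intron of Mecom, which encodes the leukaemia factor EVI1, had signal values of 15.0 in replicate 1 and 16.7 in replicate 2, at percentiles 94.6 and 88.2. The intronic Meis1 region, in the gene of a homeobox cofactor of stem cells, had 11.5 and 12.9, and one 136588 bp upstream of the gene had 7.63 and 4.95. Tcf7l2 had 5 regions, with 4.36 to 12.98 in replicate 1 and 7.68 to 15.4 in replicate 2. For the region 40270 bp downstream of its start, a RefSeq start lay 690 bp from the summit. Runx3 had an intronic region (6.78 and 8.36) and one upstream (8.10 and 9.88). The median over the 14 regions of this list was 7.56.

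The 12 regions in, or nearest to, receptor and signalling genes had a median signal value of 7.78. They lay mostly between genes, with those in introns of Jak2 and Igf1r as the exceptions. For Kit, whose product binds stem cell factor, a region 123754 bp upstream had 5.13 in replicate 1 and 8.25 in replicate 2. Jak2, the kinase of the erythropoietin receptor, had 3 upstream regions 10068 to 23225 bp away and an intronic one, from 2.86 to 9.78 in replicate 1 and from 3.70 to 7.48 in replicate 2. Socs2 and Cish, which encode inhibitors of cytokine signalling, had 14.1 and 11.3 and 9.44 and 5.47. Igf1r, a growth factor receptor gene, had 9.19 and 15.2. The Car2 region, upstream of a carbonic anhydrase gene of the red cell, had 8.88 and 7.98, and the Ank1 region printed above had 6.98 and 5.93.

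A small share of the regions overlapped elements tested before. RefSeq holds enhancers with experimental support that overlapped 14 regions (1.29%), against 0.221% of broad peaks with a start, 0.662% of narrow peaks without a start and 0.348% of all replicated peaks. Wide peaks overlap more easily, and this was not corrected. Of the 14, 13 are VISTA elements, tested in mouse embryos for activity in tissues such as heart, limb and brain, and 1 is a fragment that activates the Nanog promoter in embryonic stem cells. The VISTA element active in heart near Wnt10a overlapped a region that also held the start of the tRNA gene n-TGgcc3, with signal values of 12.5 in replicate 1 and 14.3 in replicate 2.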

How the data were processed

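H3K4me3 ChIP-seq peak lists of MEL cells were used as deposited. The authors give each peak a signal value, a score of unstated definition, with −log10 q as deposited and a summit position. Per the deposited notes, replicate lists came from each library and a control, the pooled list from both, and the replicated list from these. Neither aligner nor caller is named in the sources used here. The 1172 replicated peaks off chromosomes 1 to 19 were left out. Every mm10 list was used, and the mm9 list was not analysed here. Regions, gene lists and most choices were made with earlier results of these data known.

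From the lists, distances, covered bases, CpG ratios and words were computed with Python 3.11.15, numpy 2.4.6, pandas 2.3.3, scipy 1.17.1, numba 0.67.0 and matplotlib 3.10.9, with GENCODE M21 and RefSeq on GRCm38.p6, and the functions were tested on simulated data. A replicate signal value is that of the strongest overlapping peak. No test across regions was run, since 1 group allows none. Genes were named by rule: the 10 strongest and 10 widest regions, the 5 farthest, the 5 highest and 5 lowest by CpG ratio, the regions of listed genes, and the genes nearest to most regions, of which 5 were planned and all 11 with 4 or more were kept because of a tie. Ties in CpG ratio were taken in order of name. Regions below 50% coverage, beside a RefSeq start, a tRNA gene or a tested enhancer were named after their values were seen. Alternatives changed the width, distance, summit, starts, q, list, replicate, gap, window and overlap.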

Additional observations from a re-analysis of the deposited data

How the results depend on the processing

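Values were called moved when they shifted by more than 1 SD between the replicate lists, and the count when it shifted by over 1.5 times. The 1082 regions became 1887 with a width minimum of 800 bp, 297 with 1500 bp and 1896 with peaks merged across gaps of 1000 bp. They were 1005 to 1089 in a single replicate list. With no start within 2500 bp they were 1400, with none within 10000 bp 745, and with protein-coding starts only 1586. These last shifts were not called moved. The intron share of 34.4% was 29.97% at 1500 bp, 38.82% after merging and 32.78% to 38.91% in single lists. The CpG ratio of 0.378 was 0.313 over the whole peak and 0.327 to 0.392 in single lists. The share covered in both replicates, 99.4%, was 89.77% after merging and 92.54% to 97.15% in single lists. The GATA share of 43.3% was 70.06% within 300 bases of the summit and 41.32% to 49.85% in single lists.

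Alternatives for RefSeq and tRNA starts were chosen after seeing the data. The RefSeq share of 12.8% was 10.92% at 800 bp, 17.17% at 1500 bp, 11.54% with no start within 10000 bp, 22.01% against protein-coding starts only, 8.914% after merging, 11.44% without chromosome 13 and 12.64% to 13.59% in single lists. The tRNA share of 4.53% was 3.869% at 800 bp, 6.397% at 1500 bp, 3.49% with no start within 10000 bp, 2.11% after merging, 2.985% without chromosome 13 and 4.279% to 4.775% in single lists. The cause of these shifts was not tested. No paired analysis was possible because there is 1 group only. Depth is unknown, so no limit of detection can be given.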
